A study of Mus musculus with 8 samples.

Results

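Chondroitin sulfate is the sulfated sugar chain that fills the cartilage matrix, and 10 genes that build and sulfate it were followed here in cells of the embryonic vertebral column with and without Bapx1. The genes are Slc26a2, Papss1, Papss2, Ugdh, Xylt1, Csgalnact1, Chsy1, Chpf, Chst11 and Chst3. They were chosen by name for their known step in synthesis, but with earlier results of these data known. All 18 probes that the platform annotation assigns to them were taken. Of the 10 genes, 7 had a probe bright enough to test, among 10951 genes with a tested probe on the array.

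Mouse embryos of strain C57BL/6J;129 were taken at E12.5, and EGFP-positive cells of their vertebral column, marked by EGFP knocked into the Bapx1 locus, were sorted. Bapx1, now named Nkx3-2, is a homeodomain protein that regulates transcription in the sclerotome, the part of the somite that forms the vertebrae. The 4 arrays labelled wildtype came from embryos that, as the study writes the genotype, were heterozygous for Bapx1 tm2.Tlu, in which EGFP is translated from the 3′ UTR, through an IRES, behind an intact Bapx1 reading frame. The 4 arrays labelled null came from embryos homozygous for Bapx1 tm4.Tlu, in which EGFP stands behind the start codon and a short stretch of the coding sequence is deleted. Both groups thus carry EGFP under the endogenous Bapx1 promoter, and since the number of reporter copies and the way EGFP is translated differ with genotype, their effect on the sort cannot be told apart from it. The sort takes cells with an active locus, not 1 cell type. The methods call the replicates biological, but the sources used here do not say whether an array holds 1 embryo or several, so p-values measure only the spread between these arrays.

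Synthesis runs in steps. Sulfate enters the cell through transporters and is activated to PAPS, the sulfate donor, by the PAPS synthases. In parallel, glucose is turned into UDP-sugars, a xylosyltransferase starts a short linker on a serine of the core protein, and glycosyltransferases lengthen the chain with alternating N-acetylgalactosamine and glucuronic acid. Sulfotransferases in the Golgi then move sulfate from PAPS to hydroxyl groups of the sugars. In cartilage the chains sit mainly on aggrecan, and inherited defects in several of these genes disturb skeletal growth in mice and people.

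At the sulfate end of these steps, 4 genes (Papss1, Papss2, Chst11 and Chst3) had at least 1 probe whose null arrays all lay below all wildtype arrays. This pattern was seen in 6.05% of all tested probes, a share per probe and not per gene. By the brightest probe of each gene it held for Papss2 and Chst11, while the groups overlapped for Papss1 and Chst3. No gene that lengthens the chain showed it, but each of those had fewer tested probes than these 4. Chst11, the main chondroitin 4-O-sulfotransferase of cartilage, was the 1 member gene called, 1.82-fold lower in the null, where 0.447% of all tested genes were called lower. Papss2, the PAPS synthase best known from cartilage, was 2.66-fold lower and lay just outside the threshold at adjusted p = 0.0506 (limma). For Csgalnact1, Chsy1 and Chpf, which lengthen the chain, the differences lay above 0 with intervals that include 0. Slc26a2, Ugdh and Xylt1 could not be followed, because none of their probes passed the detection filter.

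The units were the same throughout. Levels are log2 normalized intensity, differences are null minus wildtype on that scale, and a probe was tested where its detection p was under 0.05 on at least 4 of 8 arrays, which held for 19965 of 45281 probes. A probe was called where the limma p, adjusted over all tested probes by the Benjamini-Hochberg method, was under 0.05. Exact permutation tests were two-sided over the 70 ways to divide the arrays, so the smallest p they can give is 0.0286. Precision is limited throughout by the number of arrays.

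By probe ILMN_2687592 the targeted gene, Nkx3-2, was detected on 0 of 4 wildtype arrays and on 4 of 4 null arrays, at 4.55 ± 0.20 and 6.77 ± 0.98 (log2, SD, n = 4 each), at least 3.67-fold higher (limma, adjusted p = 0.0435). This probe passed the detection filter only through the null arrays, and with no filter it was not called (limma, adjusted p = 0.105). The other Nkx3-2 probe, ILMN_2687594, was detected on 0 wildtype and 3 null arrays and was not tested. The sources used here do not place the 2 Nkx3-2 probes relative to the deletion, so they check no label. The other cartilage and sclerotome markers were present, and all 12 of that list had a tested probe, of which 6 were called lower in the null and 1, Nkx3-2 itself, higher, while 0.941% of all tested genes were called in either direction. Of the other lists, 2 of 8 tested meninges and fibroblast genes (Aldh1a1 and Slc22a6) and 1 of 5 tested endothelial genes (Tek) were called higher, and none of the neuronal, muscle and blood genes was called. The summed normalized intensity of the cartilage and sclerotome list, on a linear scale, ranged from 31073 to 36314 on wildtype arrays and from 16999 to 20411 on null arrays. Markers of other cells were also there: the sum ranged from 321 to 915 and from 1264 to 2144 for neurons, from 187 to 513 and from 730 to 1608 for endothelium, and from 18516 to 26501 and from 23865 to 31842 for meninges and fibroblasts. It ranged from 858 to 2204 and from 1719 to 5115 for skeletal muscle and from 449 to 3095 and from 464 to 788 for blood. Of these defining markers, Nefl and Snap25 of neurons, Tie1 of endothelium and Ptprc of blood were detected on 0 of 8 arrays. In bulk cells, fewer cells of a type and less RNA per cell cannot be told apart, and the part of these markers in the results below was not tested. Wildtype replicate 2 and null replicate 1 stood apart, with mean correlations to their own group of 0.969 and 0.972, against 0.979 to 0.981 for the other wildtype and 0.984 to 0.985 for the other null arrays. Null replicate 1 correlated more with the wildtype arrays (0.976 on average) than with its own group, which no other array did.

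Over all members, 11 of the 18 probes were tested, and 1 of them was called, lower in the null. Of all tested probes 0.781% were called, 0.396% as lower and 0.386% as higher. The null arrays lay wholly below the wildtype arrays for 5 of the 11 probes and wholly above for 0. Over the whole array 10.8% of probes had groups that did not overlap, 6.05% with the null below and 4.76% with it above. The 5 probes come from 4 genes, Papss1, Papss2, Chst11 and Chst3, and probes of 1 gene are not independent. The difference was below 0 for 8 of the 11 member probes and for 55.1% of all tested probes. By the brightest probe of each gene, the median difference of the 7 genes was -0.23, and that of all 10951 genes was -0.03. The members were chosen with earlier results of these data known, so their shares may not be independent of that choice.

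**Figure D1:**
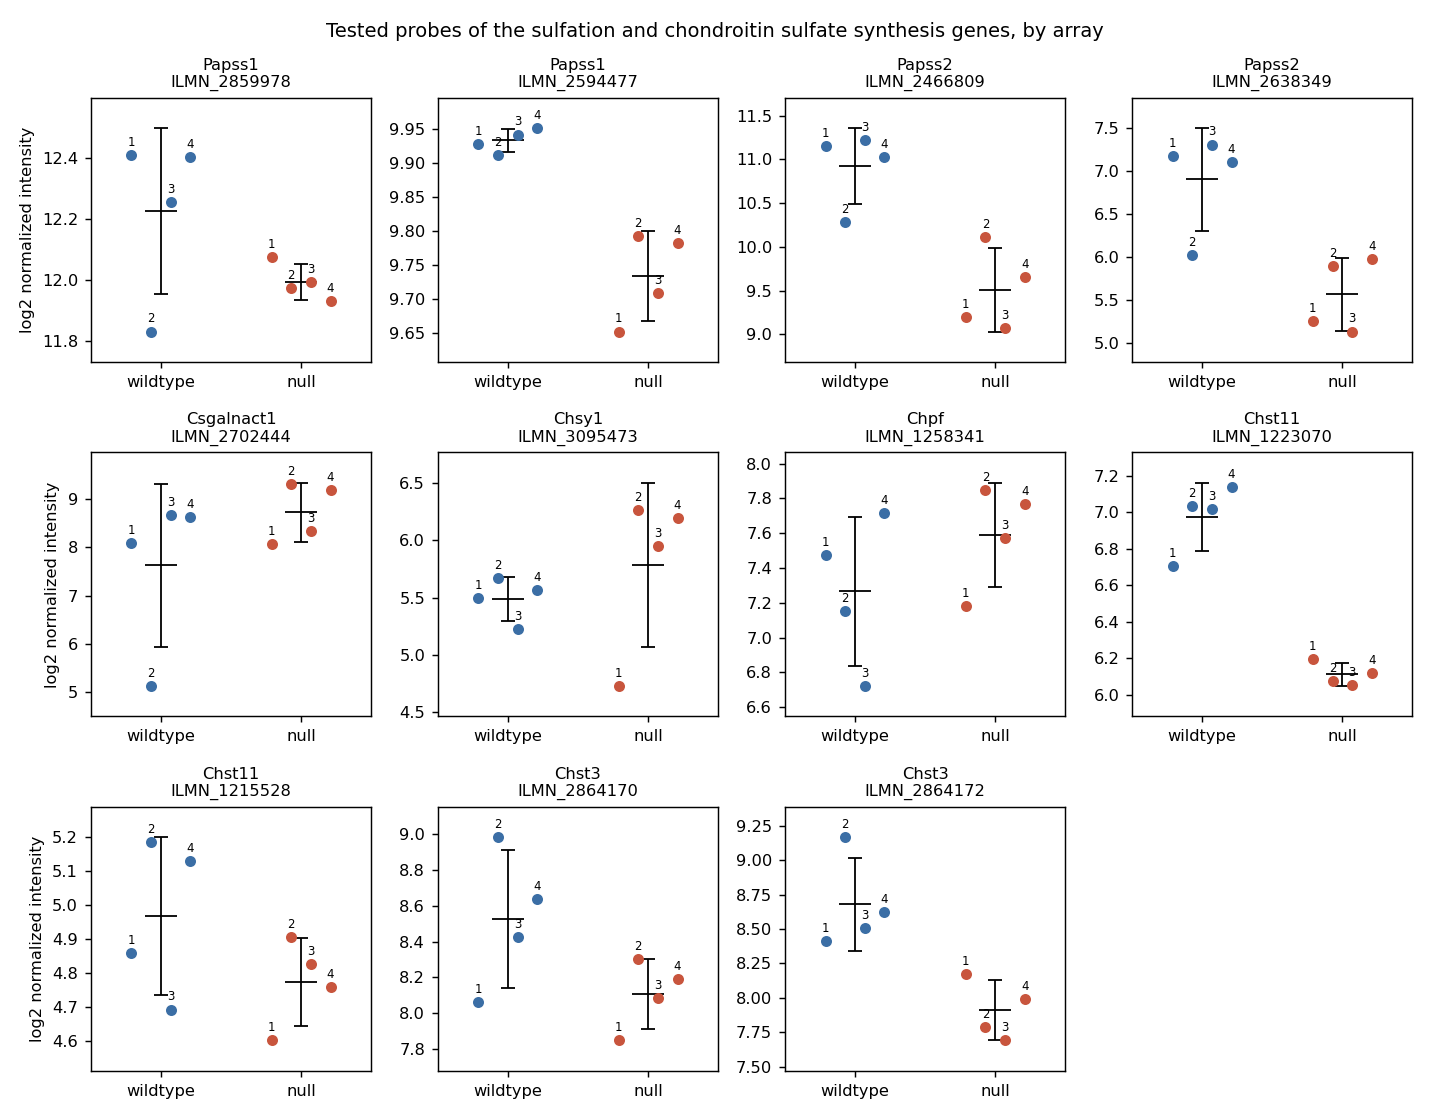
Log2 normalized intensity of each tested member probe (vertical axis, a separate range in each panel) on the 4 wildtype arrays in blue and the 4 null arrays in red, with the replicate number beside each point and the group mean ± SD in black. The null points lie below all wildtype points for Chst11 ILMN_1223070, both tested Papss2 probes, Papss1 ILMN_2594477 and Chst3 ILMN_2864172, and wildtype replicate 2 lies far below its group for Csgalnact1.

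The first step is sulfate uptake. Slc26a2, the sulfate transporter that is mutated in a group of human chondrodysplasias, could not be followed. Its probe ILMN_1224606 was detected on 0 of 8 arrays, with a deposited intensity between -2.6 and 4.7. A second annotated probe, ILMN_2550164, was not matched to the intensity table, and in the authors' log2 table its values sat at the floor of each of the 7 arrays that both tables share.

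Sulfate is activated by Papss1 and Papss2, each of which joins ATP sulfurylase and APS kinase in 1 protein. Papss1, the more widely expressed of the pair, read 12.41, 11.83, 12.26 and 12.40 on wildtype replicates 1 to 4 by its brightest probe, ILMN_2859978. On null replicates 1 to 4 the level of this probe was 12.08, 11.98, 11.99 and 11.93. The wildtype arrays spanned the wider range, with replicate 2 below all null arrays, and the groups overlapped. The difference was -0.23 (95% interval -0.56 to 0.09, limma, adjusted p = 0.366). By the second probe, ILMN_2594477, the wildtype level was 9.93 ± 0.02 and the null level 9.73 ± 0.07 (SD, n = 4 each). All null arrays lay below all wildtype arrays by this probe, although the step was small, at -0.20 (-0.42 to 0.02), and not called (limma, adjusted p = 0.268). When arrays were only centred on their median, this difference turned to 0.04.

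Papss2 carries most PAPS synthesis in cartilage, and loss of the gene causes brachymorphism in mice. Its brightest probe, ILMN_2466809, read 11.15, 10.28, 11.22 and 11.02 on wildtype replicates 1 to 4. On null replicates 1 to 4 it read 9.20, 10.11, 9.07 and 9.66. The groups did not overlap, but they came close, since the lowest wildtype array, replicate 2, lay just above the highest null array, replicate 2 of that group. The means were 10.92 ± 0.43 and 9.51 ± 0.48 (SD, n = 4 each), a difference of -1.41 (95% interval -2.01 to -0.81, limma, adjusted p = 0.0506; exact permutation p = 0.0286). In the deposited intensity, before normalization, the same probe ranged from 1143 to 2343 on wildtype arrays and from 403.5 to 1406.5 on null arrays, so that these unscaled ranges overlapped.

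The second tested probe of Papss2 gave nearly the same difference. ILMN_2638349 read 7.18, 6.02, 7.31 and 7.11 on wildtype replicates 1 to 4 and 5.26, 5.89, 5.13 and 5.97 on null replicates 1 to 4. Wildtype replicate 2 was again the low wildtype array, and null replicates 1 and 3 were again the lowest of all. The difference was -1.34 (-2.02 to -0.66, limma, adjusted p = 0.0752). The third probe, ILMN_1253588, was detected on 0 of 8 arrays. The call depended on single arrays. Without wildtype replicate 2 both probes were called lower, at -1.62 and -1.64 (limma, adjusted p = 0.0254 and 0.0197), and likewise without null replicate 1, at -1.31 and -1.24 (limma, adjusted p = 0.0251 and 0.043). Of all tested probes, 0.862% were called without wildtype replicate 2 and 16% without null replicate 1. The cartilage and sclerotome markers were, like Papss2, lowest on null replicates 1 and 3. Their mean was -1.01 and -0.88 relative to the wildtype mean, against -0.47 and -0.54 on replicates 2 and 4. That list includes Nkx3-2 itself, which read 5.45, 7.49, 6.59 and 7.55 on null replicates 1 to 4. The targeted gene thus enters this contrast between arrays.

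RefSeq gives Papss2 a pair of start sites on chromosome 19, 24290 bases apart on the plus strand of GRCm38.p6. Their sequence is shown because the probes may read transcripts from either start. Each line holds 30 bases, and the capitals mark the first 5 transcribed bases.
Papss2, upstream start, chr19:32595690-32595719: agaggagcgcggcgggaggaggagtAGGAG
Papss2, downstream start, chr19:32619980-32620009: agtgtgaggttgccttctcttccccATTCC
The upstream start lies in GC-rich sequence (66.3% of its 300-base window) and the downstream start does not (44.3%). Which start was in use cannot be told from these probes, since no source used here gives their positions on the transcript.

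Whether the 2 PAPS synthases differed from each other in their response was asked within each array, as the log2 level of the brightest Papss2 probe minus that of Papss1. Such a difference between probes has no meaning as a ratio of transcripts, and only its change between groups is read. It was -1.26, -1.55, -1.03 and -1.38 on wildtype replicates 1 to 4 and -2.88, -1.86, -2.93 and -2.27 on null replicates 1 to 4. All null arrays lay below all wildtype arrays. The change was -1.18 (95% interval -1.86 to -0.50, exact permutation p = 0.0286, adjusted p = 0.0857 over the 3 pairs compared). It does not pass after adjustment. This p is the smallest the test can give, and as the only pair at that minimum it could not have passed over 3 pairs. The adjusted p therefore does not decide whether the responses differed.

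**Figure D2:**
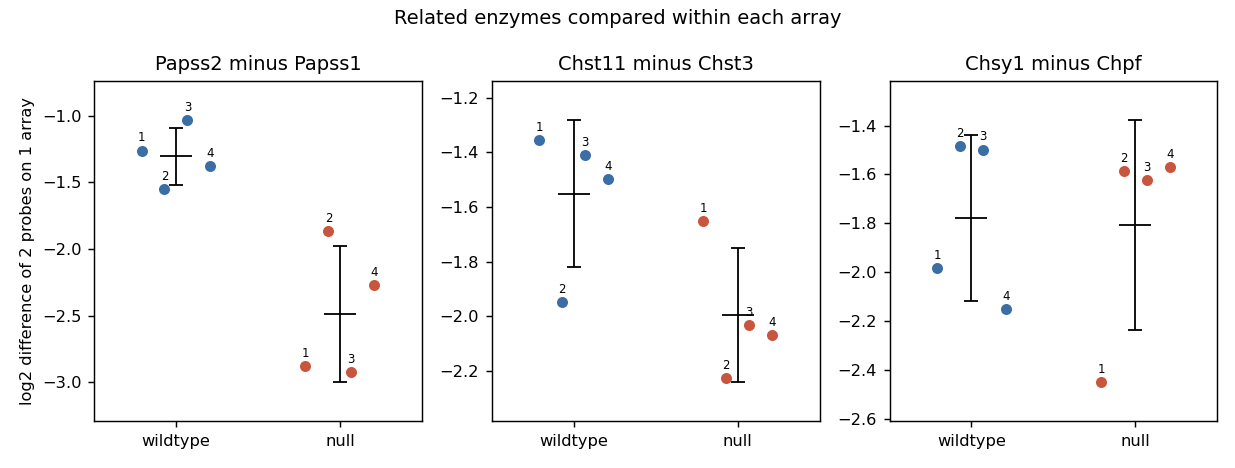
Log2 difference between the brightest probes of related enzymes on the same array (vertical axis, a separate range in each panel), with wildtype arrays in blue, null arrays in red, the replicate number beside each point and the group mean ± SD in black. The groups are apart for Papss2 minus Papss1, overlap for Chst11 minus Chst3, and have nearly equal means for Chsy1 minus Chpf, where null replicate 1 lies alone at -2.45.

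The UDP-sugar step and the linker step were out of reach of these arrays. Ugdh, which oxidizes UDP-glucose to UDP-glucuronic acid, has 1 probe, ILMN_1253090, and it was detected on 0 of 8 arrays, with a deposited intensity between -7.9 and 3.8. Xylt1, which adds the first xylose to the core protein, has 2 probes. ILMN_2507331 was detected on 2 wildtype arrays and 1 null array, and ILMN_2870152 on 0 wildtype arrays and 1 null array, which is too few to test. A probe at background shows only that its signal was not detectable, not that the transcript was absent.

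Chain elongation begins with Csgalnact1, which transfers the first N-acetylgalactosamine and so commits the linker to chondroitin sulfate. By ILMN_2702444 its level was 8.10, 5.12, 8.67 and 8.62 on wildtype replicates 1 to 4 and 8.08, 9.31, 8.35 and 9.19 on null replicates 1 to 4. Wildtype replicate 2 stood 3 log2 units under the other wildtype arrays (-3.34), a deviation that only 10 of the 19965 tested probes exceeded on that array. The groups overlapped, and the difference of 1.10 (95% interval -0.49 to 2.69, limma, adjusted p = 0.38) became 0.27 without that array. The other probe, ILMN_1238770, was detected on 1 array of each group and was not tested.

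Chsy1 and Chpf work as partners, the first a chondroitin synthase with both transferase activities and the second the factor that makes polymerization efficient. Chsy1, by ILMN_3095473, read 5.49, 5.67, 5.22 and 5.56 on wildtype replicates 1 to 4. On null replicates 1 to 4 it read 4.73, 6.26, 5.95 and 6.19, and on replicate 1 the probe was not above background. The other 3 null arrays lay above all wildtype arrays, and null replicate 1 below them. The difference was 0.30 (-0.39 to 0.98, limma, adjusted p = 0.585), and 0.65 without null replicate 1 (limma, adjusted p = 0.0215). The fit without that array called 16% of all tested probes.

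Chpf, by ILMN_1258341, read 7.48, 7.15, 6.72 and 7.71 on wildtype replicates 1 to 4 and 7.18, 7.85, 7.57 and 7.77 on null replicates 1 to 4. The groups overlapped, with null replicate 1 again the lowest of its group, and the difference was 0.33 (-0.18 to 0.83, limma, adjusted p = 0.418). Within arrays, Chsy1 minus Chpf averaged -1.78 ± 0.34 for wildtype and -1.81 ± 0.43 for null arrays (SD, n = 4 each). The change of -0.03 (95% interval -0.70 to 0.64, exact permutation p = 0.886) leaves room for a shift of either sign.

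The members that add sulfate to the chain come last. Chst11 sulfates N-acetylgalactosamine at the 4 position, and mice without it have severe chondrodysplasia. Its brighter probe, ILMN_1223070, read 6.71, 7.04, 7.02 and 7.14 on wildtype replicates 1 to 4. On null replicates 1 to 4 it read 6.20, 6.08, 6.05 and 6.12. The null arrays lay close together and all below the lowest wildtype array, replicate 1. Chst11 fell by 0.86 on the log2 scale (-1.14 to -0.59, SE 0.122), which is 1.82-fold lower (exact permutation p = 0.0286; limma, adjusted p = 0.0187). In the deposited intensity the groups did not overlap either, at 77.5 to 98.0 on wildtype arrays and 42.7 to 75.1 on null arrays.

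The call on Chst11 was not firm. It was lost without any 1 of wildtype replicates 3 and 4 and null replicates 2, 3 and 4, at adjusted p between 0.0522 and 0.0818 (limma), with the difference between -0.95 and -0.81 in all 8 such fits. With arrays only centred on their median it was -0.56 (limma, adjusted p = 0.145). The dimmer probe, ILMN_1215528, was detected on 3 wildtype arrays and 1 null array and read 4.97 ± 0.23 and 4.77 ± 0.13 (SD, n = 4 each), near background, with a difference of -0.19 (limma, adjusted p = 0.437). The mean of both probes gave -0.53 (limma, adjusted p = 0.0582).

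Chst3 sulfates N-acetylgalactosamine at the 6 position, the other main site in cartilage. By its brightest probe, ILMN_2864170, it read 8.06, 8.98, 8.43 and 8.64 on wildtype replicates 1 to 4 and 7.85, 8.30, 8.08 and 8.19 on null replicates 1 to 4. The groups overlapped, since wildtype replicate 1 lay within the null range, and the difference was -0.42 (-0.86 to 0.01, limma, adjusted p = 0.243). By ILMN_2864172 it read 8.42, 9.17, 8.51 and 8.63 on wildtype replicates 1 to 4 and 8.18, 7.79, 7.69 and 7.99 on null replicates 1 to 4. Here all null arrays lay below all wildtype arrays, 1.70-fold lower at -0.77 (-1.18 to -0.36, limma, adjusted p = 0.0813), a difference that was not called. In the deposited intensity of this probe, wildtype arrays ranged from 244.8 to 491.3 and null arrays from 194.6 to 328.1, with overlap. Without null replicate 1 it was called lower, at -0.86 (limma, adjusted p = 0.023), in a fit that called 16% of all tested probes.

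Within arrays, Chst11 minus Chst3 by the brightest probes was -1.35, -1.95, -1.41 and -1.50 on wildtype replicates 1 to 4 and -1.65, -2.23, -2.03 and -2.07 on null replicates 1 to 4. The groups overlapped through wildtype replicate 2 and null replicate 1. The change was -0.44 (95% interval -0.89 to 0.00, exact permutation p = 0.0571, adjusted p = 0.0857 over the 3 pairs), so a difference in response between the 4-O- and 6-O-sulfotransferase was not shown.

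Both sulfotransferase genes lie on chromosome 10, Chst11 on the plus and Chst3 on the minus strand of GRCm38.p6. Their start sites from RefSeq are shown in the same way, the first 5 transcribed bases in capitals. Both genes had a probe wholly lower in the null, as did Papss1, whose start sites are not shown.
Chst11, chr10:82985472-82985501: aggggggcctggacagtcacagaggCCAGT
Chst3, chr10:60219256-60219285: tcaccgagcgtccccaagttgccggGTGCG
The RefSeq table held promoter windows for 7 of the 10 members, 9 windows of 300 bases with 250 before and 50 after each start. They were searched on both strands for TAAGTG and TGAGTG, the core letters bound by Nkx3-2, and for AACAAAG and AACAATG, core letters bound by Sox proteins such as Sox9, the regulator of cartilage. None of these motifs contains another. The Sox9 motif that the study reports also allows T in place of each leading A, and those forms were not searched. TAAGTG was found in 0 of the 9 windows and in 9.2% of 32851 windows of all genes, and AACAATG in 0 and in 3.78%. TGAGTG was found in 1 window, that of Chpf, against 16.4% of all, and AACAAAG in 1 window, that of Chst3, against 5.85%. Both matches are shown with the motif in capitals, and on the Chpf line it reads on the opposite strand.
Chpf, chr1:75479537-75479560, minus strand: tcctgacgtCACTCAgggtgcacc
Chst3, chr10:60219418-60219442, minus strand: taagtcgggAACAAAGgcccacgga
The match in Chpf begins 80 bases before the start site and that in Chst3 begins 173 bases before it. A match of these letters is a description of the sequence, and says nothing of binding.

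**Figure D3:**
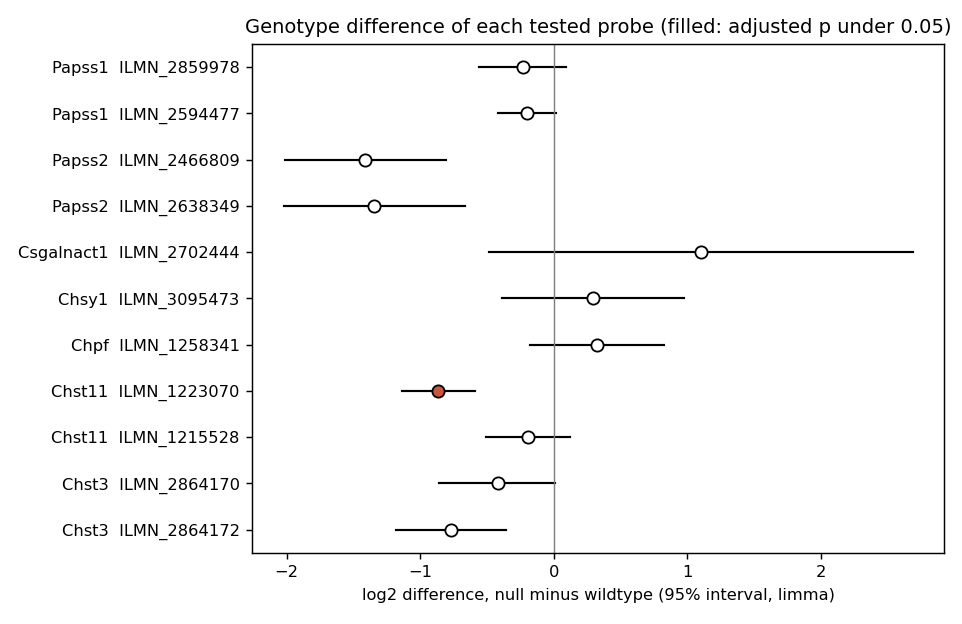
Log2 difference, null minus wildtype, of each tested member probe (horizontal axis) with its 95% limma interval, in order of the synthesis steps from top to bottom. Chst11 ILMN_1223070, the filled point, was the 1 probe with adjusted p under 0.05, and the intervals of both Papss2 probes and of Chst3 ILMN_2864172 also lie wholly below 0.

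Among the fits that left out 1 array, the number of member probes called moved most without the 2 arrays that stood apart. Without null replicate 1, 5 of the 11 member probes were called, 4 of them lower (Chst11 ILMN_1223070, both Papss2 probes and Chst3 ILMN_2864172) and 1 higher (Chsy1). Over all tested probes the same fit called 16%, 6.64% lower and 9.31% higher. Null replicate 1 was the lowest null array for Chsy1, Chpf, Csgalnact1, Chst3 ILMN_2864170, Chst11 ILMN_1215528 and Papss1 ILMN_2594477, and the highest null array for Chst11 ILMN_1223070, Chst3 ILMN_2864172 and Papss1 ILMN_2859978. Without wildtype replicate 2, 3 member probes were called lower, both of Papss2 and Chst11 ILMN_1223070, where 0.862% of all tested probes were called, 0.471% as lower. Without both wildtype replicate 2 and null replicate 1, 6 member probes and 4048 of all tested probes were called.

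**Figure D4:**
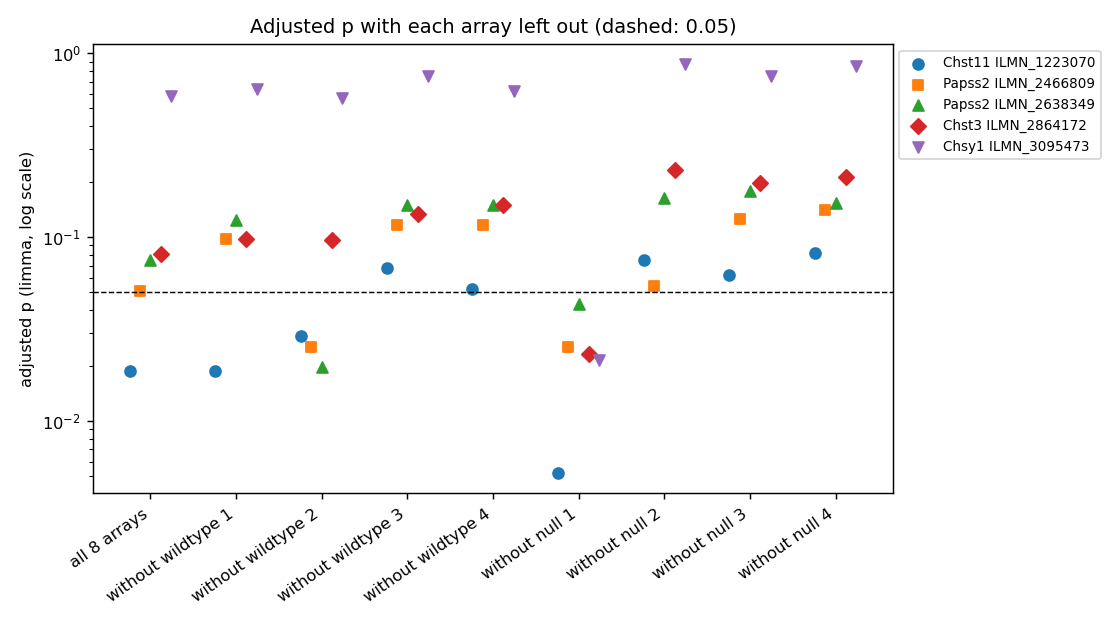
Adjusted p (limma, logarithmic vertical axis) of 5 member probes with all 8 arrays and with each array left out in turn (horizontal axis), the dashed line at 0.05. Without null replicate 1 all 5 probes lie under the line, with all 8 arrays only Chst11 does, and without any of null replicates 2, 3 and 4 none does.

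The members can be set beside the marker lists on each array. Relative to the wildtype mean, the level of Papss2 ILMN_2466809 was -1.72, -0.81, -1.85 and -1.26 on null replicates 1 to 4. That of Chst11 ILMN_1223070 was more even, at -0.78, -0.90, -0.92 and -0.85. The neuronal markers were higher on all null arrays, at 1.48, 0.91, 1.66 and 0.89, and lowest on wildtype replicate 2, at -1. Among the tested member probes, that array was also lowest in its group for Csgalnact1, Papss2 and Papss1. It was highest in its group for Chsy1, both Chst3 probes and Chst11 ILMN_1215528. The pattern of the neuronal markers was not particular to them. Endothelial, skeletal muscle, and meninges and fibroblast markers were also above the wildtype mean on all null arrays. They too were lowest on wildtype replicate 2, at -0.79, -0.56 and -0.29. Among wildtype arrays, the cartilage and sclerotome markers (-0.21) and the blood markers (-0.87) were lowest on replicate 2 as well. Blood markers on null arrays lay on either side of the wildtype mean.

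**Figure D5:**
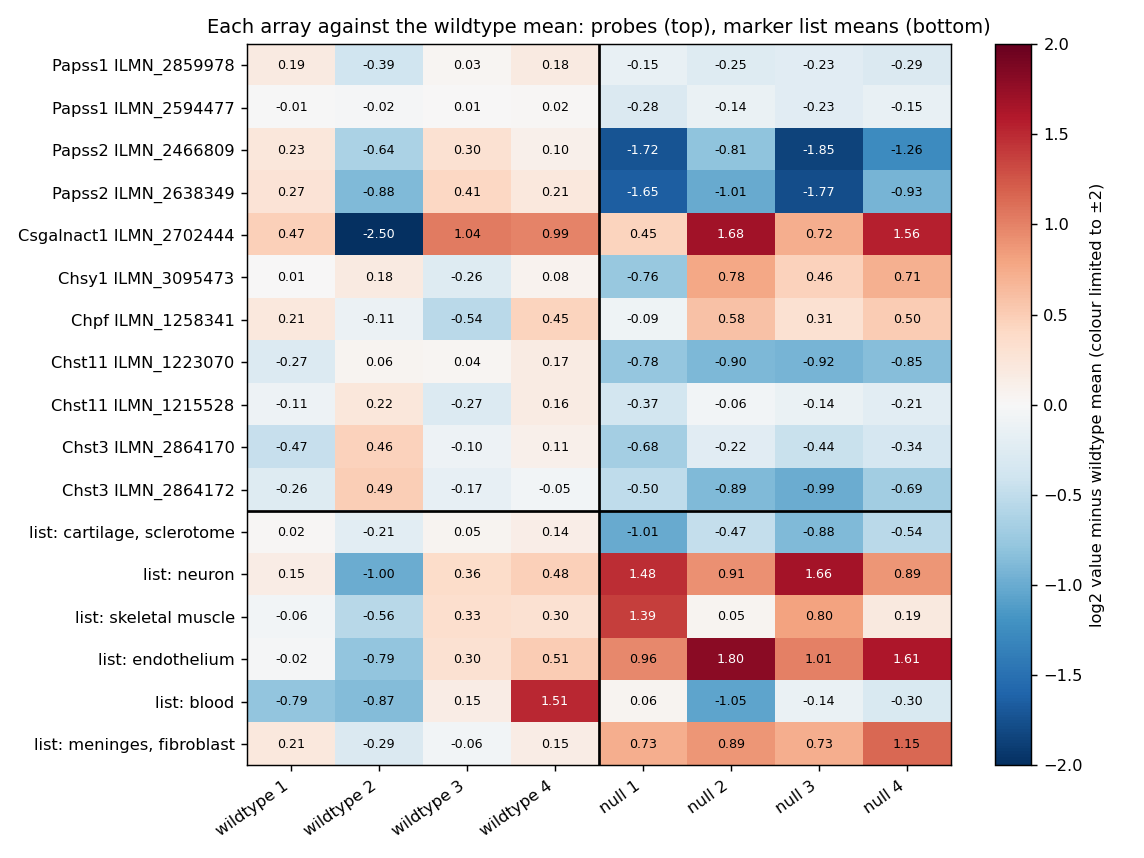
Log2 level of each tested member probe (upper rows) and the mean over each marker list (lower rows) on the 8 arrays (columns), less the wildtype mean of that row, with blue below and red above 0 and colours limited to 2 units either way. The cartilage and sclerotome row is below 0 on all null arrays, as are the rows of Papss1, Papss2, Chst11 and Chst3. The 2.50 units by which Csgalnact1 lies under its wildtype mean on wildtype replicate 2 stand alone.

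The rest of the pathway was counted from 9 lists of 79 genes, of which 71 were on the array and 61 had a tested probe, each represented by its brightest. Of the 61, 2 were called, both lower in the null. Over all 10951 genes counted in this way 0.941% were called, 0.447% as lower. At an unadjusted p under 0.05, 22 of the 61 and 23.1% of all genes passed.

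Among the 4 tested genes of sulfate handling beside the members, Bpnt1 was called. It encodes a cytosolic phosphatase that clears PAP, the product left when PAPS has given up its sulfate. It fell by 0.62, from 6.68 ± 0.13 to 6.06 ± 0.07 (SD, n = 4 each; limma, adjusted p = 0.0431), with all null arrays lower, and the call was lost without any 1 array other than null replicate 1. The median difference of this list was -0.41. None of the 6 tested UDP-sugar genes was called, with a median of -0.09, and Pgm3, a phosphomutase of the hexosamine route, differed by -0.34 (limma, adjusted p = 0.22). The nucleotide-sugar carrier Slc35d1 differed by -0.35 (limma, adjusted p = 0.234).

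None of the 6 linker genes was called either, with a median of -0.34 and differences from -1.21 to 0.93. The 2 named here had the smallest p, not the largest difference. Xylt2, the second xylosyltransferase, read 6.68 ± 0.06 and 7.60 ± 0.62 (SD, n = 4 each), a difference of 0.93 with overlap (limma, adjusted p = 0.111). B3gat3, which closes the linker with glucuronic acid, differed by -0.42 (limma, adjusted p = 0.201). The other 3 chain genes, Csgalnact2, Chsy3 and Chpf2, had 0 tested probes. The 6 tested genes that sulfate or epimerize the chain further had a median of -0.15 and none was called. In this list Chst15, which adds a second sulfate to N-acetylgalactosamine, differed by -0.31 (limma, adjusted p = 0.184), and Ust, the uronyl 2-O-sulfotransferase, by -0.33 (limma, adjusted p = 0.227).

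Other sulfated chains draw on the same PAPS. Of 16 tested heparan sulfate genes none was called, with a median of -0.07, and the 6-O-sulfotransferases Hs6st1 and Hs6st2 read 0.66 and 0.53 above the wildtype (limma, adjusted p = 0.113 for each). Of 4 tested keratan sulfate genes none was called, with a median of 0.29. There Chst2, an N-acetylglucosamine 6-O-sulfotransferase, read 8.54 ± 0.14 and 9.23 ± 0.18 (SD, n = 4 each), a difference of 0.69 just outside the threshold (limma, adjusted p = 0.0506), with all null arrays higher. Chst1, the galactose 6-O-sulfotransferase, differed by -0.40 (limma, adjusted p = 0.21).

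The genes that break chondroitin sulfate down and those for the proteins that carry it complete the pathway. Of 9 tested breakdown genes none was called, with a median of 0.09. The iduronidase Idua differed by -0.48 (limma, adjusted p = 0.115), and the glucuronidase Gusb by 0.40 (limma, adjusted p = 0.168). Of 10 tested core protein genes, with a median of 0.22, 1 was called. This was Acan, the aggrecan core protein that carries most cartilage chondroitin sulfate, which fell by 1.92 from 6.98 ± 0.43 to 5.06 ± 0.55 (SD, n = 4 each; limma, adjusted p = 0.0223). These values are of its brightest probe, ILMN_2645654, which was detected on 4 wildtype and 2 null arrays. A dimmer Acan probe, ILMN_2639818, was detected on 4 wildtype and 2 null arrays as well. Its means were 5.76 for wildtype and 5.13 for null, a smaller drop. The call by the brightest probe was lost without any 1 of wildtype replicates 1, 3 and 4 and null replicates 3 and 4, at adjusted p between 0.0539 and 0.0696 (limma). In the authors' log2 values, whose null arrays do not all match those used here, its difference was -3.82 (limma, adjusted p = 0.175).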

How the data were processed

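Biotinylated cRNA from 4 wildtype and 4 null samples was hybridized to Illumina mouse BeadChips. GenomeStudio, whose version the sources used here do not give, was used by the authors to subtract background. The first deposited table holds the resulting linear intensity, with 28% to 31.4% of values below 0 per array, beside a detection p-value deposited as 1 minus p. The second deposited table holds log2 values that the authors centred per array and from which a baseline of unstated origin was removed per probe. Its 7 arrays shared with the first served to match array addresses to probe identifiers, uniquely for 35665 of 45281 probes (78.76%, tolerance 0.001 on the log2 scale). Its null replicate numbers differ from those of the first, and its null replicate 1 matched none, so the numbering of the intensity table was used.

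In limma 3.58.1 (R 4.3.3, statmod 1.5.0) values were corrected by normexp with an offset of 16, quantile normalized and taken to log2. Genotypes were compared with lmFit and eBayes. A fold against a group with 0 detections was computed as a bound from the lowest detected signal. All probes of the 10 genes were named, and in each other list up to 4 called genes, or the 2 of smallest p where there were none. The members and lists were chosen with earlier results of these data known. Simulated data over 19965 probes, 50 changed per fold size, gave recovery of 22% at 1.5-fold, 66% at 2-fold, 96% at 4-fold and 100% at 8-fold, with 7 false calls. The detected share was 41% to 45.8% per array and the median intensity 5.6 to 10.1. Alternatives were a floor, other scalings, filters and offsets, a replicate block, array weights, the methods' t-test, the authors' log2 values and leaving out arrays. Start sites came from the RefSeq tables of GRCm38.p6. Matching and figures used matplotlib 3.10.9, scipy 1.17.1 and pandas 2.3.3 under Python 3.11.15.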

Additional observations from a re-analysis of the deposited data

Results flagged for a closer look

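In 32 groups of 4 arrays, over the tested member probes, Nkx3-2 and the 3 pairs of related enzymes, 4 held an array whose gap to the nearest of the others, as a share of the group's range, was above Dixon's critical value. Chance flags about 1 in 20 such groups. Wildtype replicate 2 was far below its group for Papss2 ILMN_2638349 (0.843) and for Csgalnact1 ILMN_2702444 (0.841), at levels of 6.02 and 5.12. Wildtype replicate 4 was far above its group for Nkx3-2 ILMN_2687592 (0.862), at 4.84 and not detected. Null replicate 1 was far below its group for Chsy1 minus Chpf (0.943), at -2.45.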

How the results depend on the processing

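With all arrays and the main settings 156 probes were called, 1 of the members and 2 genes of the pathway lists. The number over all probes was 99 with a floor of 16 in place of normexp, 1 with arrays scaled by the median absolute deviation, 75 with no filter, 6190 with array weights, 12 with the methods' t-test after Benjamini-Hochberg (3763 at an unadjusted p under 0.05) and 16 with the authors' log2 values. For member probes and pathway genes it was 0 and 1 with arrays centred on their median, 0 and 0 with the median absolute deviation, the methods' t-test and the authors' log2 values, and 7 and 29 with array weights. It was 2 member probes with detection on all 8 arrays (141 of all 16345 probes tested) and with an offset of 50 (232 of all probes), and 1 pathway gene with no filter. Median centring moved the median of all probes to 0.19 and the share of calls that were higher from 49.4% to 79.8%, and the median absolute deviation moved the median to -0.26, so that differences under either are read against that shift. In the authors' log2 values 18.8% of calls were higher. That table has a null array that matched no intensity array, and none of its arrays matched null replicate 4 of the intensity table. Results with the authors' values may therefore differ through the arrays as well as through the processing. Leaving out 1 array gave 21 to 3185 probes, 0 to 5 member probes and 0 to 18 pathway genes, the highest each time without null replicate 1. With wildtype replicate 2 and null replicate 1 both left out, a setting added after seeing the data, the numbers were 4048, 6 and 21.

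Replicate numbers did not pair the arrays: the deviations of same-numbered arrays correlated at -0.05, -0.11, -0.20 and 0.04. With the replicate number as a block 20 probes, 0 member probes and 0 pathway genes were called. Nkx3-2 was 2.48 (limma, adjusted p = 0.0838) with the floor, 2.11 (0.173) with the median absolute deviation, 2.22 with no filter (0.105), under the block (0.0803) and by the methods' t-test (0.159), 1.36 (0.0575) with an offset of 50, 4.45 (0.149) with the authors' values, and 1.96 to 2.66 with 1 array left out (0.00196 to 0.134). Papss2 ILMN_2466809 passed with detection on all 8 arrays (0.0454), an offset of 50 (0.0405) and array weights (0.00512).

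The difference turned for Papss1 ILMN_2594477 under median centring (0.044), Chst11 ILMN_1215528 with the floor (0.009), Hs6st2 (-0.12) and Gusb (-0.24) under the median absolute deviation, and Chsy1 minus Chpf with the floor (0.11), the median absolute deviation (0.24) and 1 array left out (-0.15 to 0.19). The cause was not tested. Papss2 minus Papss1 (-1.39 to -1.03) and Chst11 minus Chst3 (-0.58 to -0.37) kept their sign with 1 array left out. With the median absolute deviation these changes were smaller, at -0.80 and -0.08. For single probes and genes, 393 other values kept their side of the threshold, 33 lost a call, 47 gained one and the 4 named turned. Signal over background limits Slc26a2, Ugdh and Xylt1, which have no value here.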
